A study of Pangasianodon hypophthalmus with 14 samples.

Results

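The genes described here encode signals of inflammation and their receptors in tra catfish (Pangasianodon hypophthalmus): interleukins, chemokines, tumour necrosis factor (TNF) family members, Toll-like receptors and the adaptors, NF-kB genes and SOCS genes that act behind them. They were chosen by gene name. A gene belonged if its listed name began with il, ccl, ccr or tlr followed by a digit, or with cxcl, cxcr, tnfrsf, tnfsf, tnfaip, traf, nfkb, csf or socs, leaving out csf1r, and the gene listed as LOC113525729 was added as cxcl8a, its RefSeq symbol. The rule found 58 of the 21656 genes in the table. A further 86 genes that are listed only by a LOC identifier have a RefSeq symbol that fits the same rule; they were kept apart from the 58.

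Whole-body RNA was sequenced from embryos and larvae, with no treatment, strain or genotype named in the labels, at 7 ages: at 2, 4, 6 and 8 days post fertilization (dpf), and daily from 9 to 11 dpf. There were 2 libraries per age, 14 in all, and the study describes each replicate as a pool of 4 animals. The methods also state that RNA of both pools was used in equal amounts to build the libraries of a stage, so p-values measure only the spread between these libraries, which may be technical. The ages were set by tests of how long the larvae survived low oxygen, and each stage was compared with the one before.

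Cytokines and chemokines are secreted proteins that call in and activate white blood cells, while Toll-like receptors bind molecules of microbes or of damaged cells. The signals of Toll-like receptors and of many cytokines reach the nucleus largely through NF-kB or through JAK kinases and STAT factors. The inhibitors of these routes, among them NF-kB inhibitor genes and socs genes, are themselves switched on by them, so that in many tissues ligands and inhibitors are induced together. In larval fish the first white blood cells are macrophages and neutrophils, and lymphocytes appear later.

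Counts assigned to genes ranged from 4112131 (4 dpf, replicate 1) to 11609823 (8 dpf, replicate 2) per library. Levels are given in CPM, counts scaled to a common library total with TMM factors, which correct for differences in RNA composition. A gene with 3 counts stood at 0.289 to 0.720 CPM, depending on the library, and this covers counting error only. Gene lengths were not used here, so levels of different genes cannot be set against each other. Markers of muscle, neurons, liver, blood vessels and photoreceptors were all present at every stage, as the whole-body label says. The 2 libraries of 4 dpf and those of 2 dpf differed from each other far more than sampling of reads gives (chi-square per gene 29.6 and 18.7, where sampling alone gives 1), against 1.13 to 1.29 at 6, 9 and 11 dpf. The spread of each gene was estimated over all 14 libraries at once. The p-values for 2 and 4 dpf therefore also rest on the closer pairs of other stages.

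The summed level of the set was highest at 4 dpf. It was 738.8 and 799.5 CPM in the 4 dpf libraries and between 517.1 and 610.9 CPM in the other 12. The size of this gap depends on the scaling. As a share of all counts, the set held 0.0749% and 0.0782% at 4 dpf and 0.0666% and 0.064% at 2 dpf. The sum includes cxcl8a, with a mean of 36.6 CPM at 4 dpf and at most 0.339 at other stages. Of the 51 genes with enough counts to be tested, 27 (52.9%) had their highest stage mean at 4 dpf, against 26.6% of all 19310 tested genes, and 7 had their lowest there. Of the 27, cxcl8a, il17c and nfkbid had enough counts to be tested through their 4 dpf libraries alone, so that their peak was fixed by the filter. Leaving out all genes that passed through 1 stage only, 24 of 48 (50%) peaked at 4 dpf, against 26.4% of 19084. At 4 dpf compared with 2 dpf 17 of the 51 were higher and 1 was lower (all genes 13.8% and 5.99%). At 6 dpf compared with 4 dpf 11 were lower and 0 higher (all genes 6.48% and 4.81%). After 6 dpf at most 2 of them (3.92%) were called at any step. Calls of all genes became few as well, at 5.74% for 8 dpf and at most 1.28% later. To be called higher or lower, a gene needed a log2 fold change beyond 1 in size and an adjusted p under 0.05 in the quasi-likelihood test of edgeR, corrected over all tested genes.

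**Figure D1:**
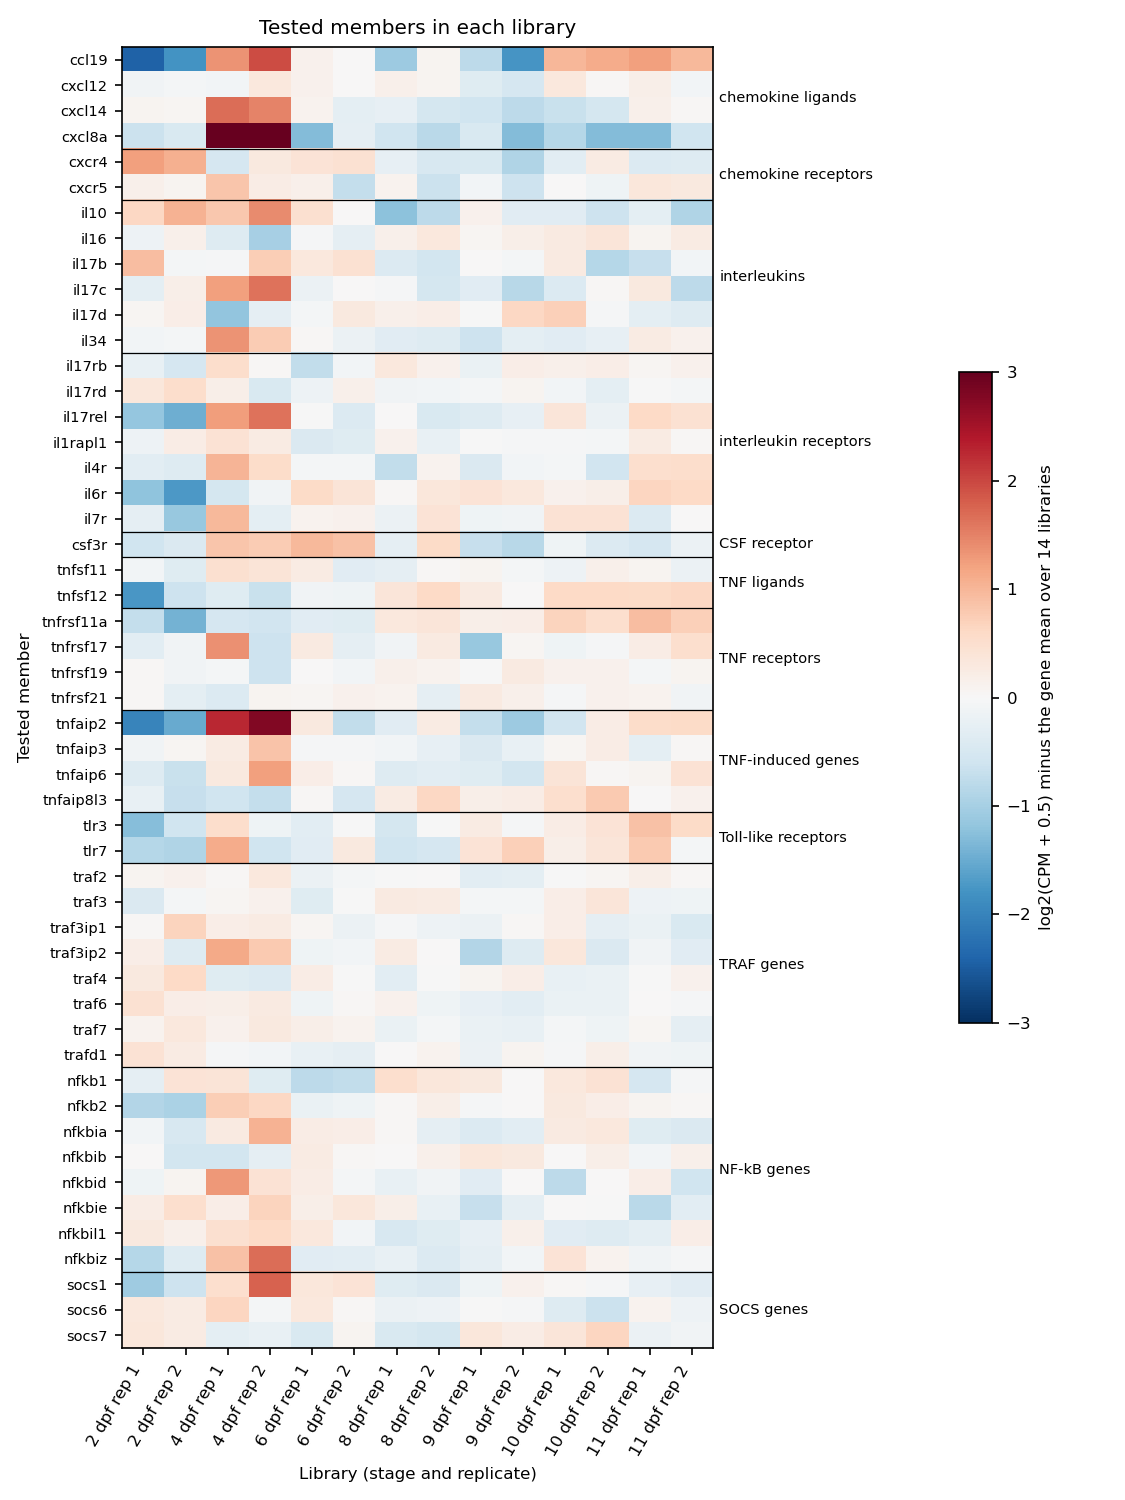
Level of the 51 tested genes (rows, grouped by role) in each of the 14 libraries (columns, by stage and replicate). Colour is log2(CPM + 0.5) minus the mean of that gene over all libraries, from blue (lower) to red (higher), with values beyond 3 drawn as 3. In both 4 dpf columns cxcl8a (4.82 and 5.02), tnfaip2 (2.27 and 2.79), cxcl14 (1.69 and 1.49), ccl19 (1.34 and 1.96), il17rel (1.24 and 1.63) and il17c (1.23 and 1.63) lie more than 1 above their mean.

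At 4 dpf compared with 2 dpf, 19.8% of all tested genes were called, 13.8% higher and 5.99% lower, and 18 of the 51 genes of the set. The median log2 fold change of the 51 was 0.53, against 0.00 over all tested genes. Without cxcl8a, il17c and nfkbid 15 of 48 were higher (31.2%), against 13.5% of all genes left by the same exclusion. A total of 34 reached 10 counts in all 14 libraries. Under that filter 2626 of all 15835 genes were called, and 11 of the 34. The count lay between 14 (without replicate 1 of 4 dpf) and 19 when 1 library was left out. Calls of all genes in those fits are not given here. With only the 4 libraries compared, so that no other stage enters the spread, 17 of 47 were called (all genes 3191 of 18368). Scaled by library totals instead of TMM, 13 were higher and 2 lower (all genes 1938 and 2360 of 19310). The share of all calls that were higher then went from 69.7% to 45.1%. The median of the set went to 0.27 and that of all genes to -0.25.

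At 6 dpf compared with 4 dpf, 11.3% of all tested genes were called, 6.48% lower and 4.81% higher. The set had 11 calls, all lower, and a median of -0.39 against -0.02 over all genes. This comparison and the one before share the 4 dpf libraries, so a high level at 4 dpf enters both. Without cxcl8a, il17c and nfkbid 9 of 48 were lower (18.8%, all genes 6.24%). Leaving out 1 library gave 8 to 13 calls, with the calls of all genes in those fits not given here. With only the 4 libraries compared, 8 of 50 were called (all genes 1471 of 18690). When the libraries of each pair at 6, 9 and 11 dpf were summed, 7 of 51 were called, against 1595 of all 19499 genes. There were 3 calls among the 34 genes with at least 10 counts in every library. Under that filter 1516 of all 15835 genes were called, so the share of the set was no higher. By library totals 9 were lower and 0 higher (all genes 1033 and 1133 of 19310), with 52.3% of all calls higher in place of 42.6%. The medians were then -0.31 for the set and 0.05 over all genes.

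At the later steps the set, like all genes, had few calls. Between 6 and 8 dpf 5.74% of all genes were called (3.02% higher, 2.72% lower), and of the set nfkb1 was higher and il10 lower. Between 8 and 9 dpf the only call was csf3r, lower (all genes 1.28%, of which lower 0.818%), and between 9 and 10 dpf the only call was ccl19, higher (all genes 1.01%, of which higher 0.792%). Between 10 and 11 dpf 1.14% of all genes were called (0.699% higher, 0.445% lower) and 0 of the set, with edgeR, and 0 with DESeq2. An unadjusted edgeR p under 0.05 was reached by 10 of the set, and all genes were not counted at that p alone. With the fold threshold added, 0 of the set and 529 of all 19310 genes passed. The medians of the set at these 4 steps were -0.09, -0.11, 0.22 and -0.05. By library totals the medians at 9 and 11 dpf changed sign, to 0.02 and 0.04 (all genes 0.08 at both). The calls at 8 dpf became 1 higher and 4 lower (all genes 295 and 1132 of 19310). Among all calls the share that was higher went from 52.6% to 20.7% at 8 dpf, from 36.0% to 65.6% at 9 dpf, from 78.5% to 61.6% at 10 dpf and from 61.1% to 77.5% at 11 dpf.

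Over the whole span, 11 dpf compared with 2 dpf, 10 of the set were called (8 higher, 2 lower), which is 19.6% against 20.8% of all tested genes (12.6% higher, 8.22% lower). The median of the 51 was 0.11 against -0.06 over all genes. By library totals 7 were higher and 5 lower (all genes 1808 and 2946 of 19310). The median was then -0.17 for the set and -0.34 over all genes. The share of all calls that were higher went from 60.6% to 38.0%. In at least 1 adjacent comparison 20 of the 51 were called, or 39.2%, against 29.2% of all genes. The 20 include cxcl8a and il17c, whose direction was fixed by the filter. This count was not repeated without genes that passed the filter through 1 stage only. With at least 10 counts in every library, which leaves out both genes, 12 of 34 were called, against 3948 of all 15835 genes. Over the 7 stages together 35 of the 51 differed by edgeR adjusted p, or 68.6%, against 75.3% of all genes.

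**Figure D2:**
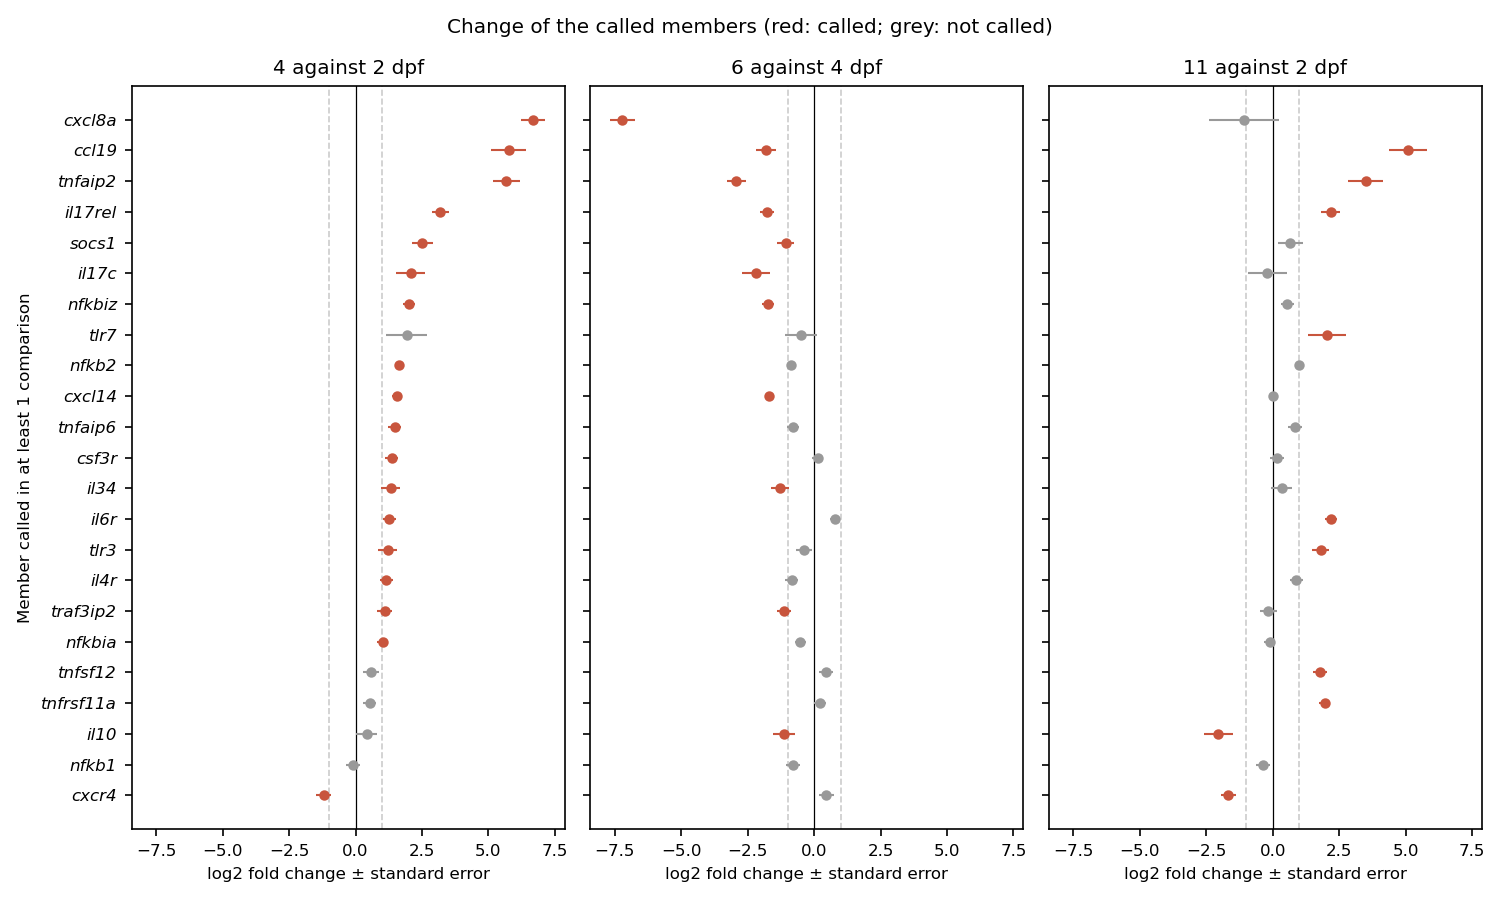
Log2 fold change with its standard error (x axis) of the 23 genes called in at least 1 of 7 comparisons (y axis), for 4 against 2 dpf, 6 against 4 dpf and 11 against 2 dpf. Red points were called, grey points were not, and dashed lines mark a log2 fold change of 1 in size. From top to bottom genes are ordered by their change at 4 dpf, from cxcl8a (6.68) to cxcr4 (-1.21).

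Chemokine ligands are small proteins that set up gradients along which cells migrate. Of the 5 ligands in the set, 4 were tested. At 4 dpf 3 were higher (all genes 13.8%), and the same number were lower at 6 dpf (all genes 6.48%). For 1 of them, cxcl8a, the direction was fixed by the filter. The gene cxcl8a encodes a chemokine that draws in neutrophils. Its level was 0.282 and 0.395 CPM (2 dpf), 34.1 and 39.1 (4 dpf), 0 and 0.518 (6 dpf), 0.305 and 0.193 (8 dpf), 0.393 and 0 (9 dpf), 0.174 and 0 (10 dpf), 0 and 0.314 (11 dpf). Only the 4 dpf libraries stood clear of the floor, with 142 and 261 counts. In all other libraries it had between 0 and 4 counts, so it was tested only because of its level at 4 dpf.

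With 403 counts at 4 dpf and 5 at 2 dpf, the ratio of cxcl8a between these stages was 109, with a 95% counting interval of 46.4 to 338. In the fit it had a log2 fold change of 6.68 ± 0.46 SE, edgeR adjusted p = 8.97e-09. Against 6 dpf, with 4 counts, the ratio was 163 (95% counting interval 63.3 to 602) and the fit gave a log2 fold change -7.22 ± 0.47 SE, edgeR adjusted p = 2.53e-08. The direction of both calls was fixed by the filter, so their p-values do not test it. Both calls held with any 1 of the 14 libraries left out. The log2 fold change at 4 dpf then lay between 6.47 and 6.94, and that at 6 dpf between -11.02 (without replicate 2 of 6 dpf, which leaves that stage at 0 counts, so that the value depends on the prior count of the fit) and -6.10.

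The gene ccl19 encodes a chemokine that in mammals guides T cells and dendritic cells through the receptor CCR7. It stood at 0 and 0.263 CPM (2 dpf), 6.24 and 9.9 (4 dpf), 2.44 and 2.2 (6 dpf), 0.763 and 2.31 (8 dpf), 1.05 and 0.281 (9 dpf), 4.86 and 5.27 (10 dpf), 5.76 and 4.71 (11 dpf). It was near the floor at 2 dpf, high at 4 dpf, and high again at 10 and 11 dpf after low values at 9 dpf. The ratio of 4 to 2 dpf was 62.3 (95% counting interval 16.8 to 522, from 92 and 2 counts; log2 fold change 5.76 ± 0.66 SE, edgeR adjusted p = 3.46e-06). The call held with any 1 library left out. Both counts at 2 dpf are in replicate 2, and the log2 fold change was 4.89 with only that library for 2 dpf and 8.88 with only replicate 1, where the fit rests on its prior count.

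The gene ccl19 was lower at 6 dpf (log2 fold change -1.83 ± 0.38 SE, edgeR adjusted p = 0.00167), and 11 dpf stayed above 2 dpf with a ratio of 38.5 (95% counting interval 10.3 to 325; log2 fold change 5.1 ± 0.71 SE, edgeR adjusted p = 2.37e-05). Without replicate 1 or 2 of 2 dpf the latter was 4.23 or 8.22 on the log2 scale. Between 9 and 10 dpf it was higher again (log2 fold change 2.87 ± 0.53 SE, edgeR adjusted p = 0.00797). This last call was lost without replicate 2 of 9 dpf (log2 fold change 2.26, edgeR adjusted p = 0.161) and without either library of 10 dpf (edgeR adjusted p = 0.0579 and 0.07). Close relatives of ccl19 are listed under LOC identifiers, and how reads were shared out between such copies was not stated.

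The gene cxcl14 encodes a chemokine made mainly by epithelia in mammals. It had 14.1 and 13.8 CPM (2 dpf), 43.7 and 38.1 (4 dpf), 14.3 and 10.7 (6 dpf), 11 and 9.05 (8 dpf), 8.51 and 7.45 (9 dpf), 8.16 and 9.06 (10 dpf), 14.8 and 13.7 (11 dpf). Both 4 dpf libraries lay above all others, and the remaining 12 lay between 7.45 and 14.8 CPM. The change at 4 dpf (log2 fold change 1.54 ± 0.17 SE, edgeR adjusted p = 1.62e-06) and at 6 dpf (log2 fold change -1.69 ± 0.16 SE, edgeR adjusted p = 1.93e-06) kept its call in every setting tried that tested the gene.

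The ligand with the largest mean, cxcl12, guides migrating cells that carry Cxcr4. Its level was 25.1 and 25.9 CPM (2 dpf), 25.4 and 33.5 (4 dpf), 29.4 and 27.2 (6 dpf), 29.8 and 28.3 (8 dpf), 20.7 and 19 (9 dpf), 33.9 and 27.7 (10 dpf), 30.3 and 25.3 (11 dpf). The libraries overlapped across most stages and no comparison called it, with log2 fold changes between -0.55 and 0.63. The fifth ligand, cxcl13, had at most 8 counts in any library and was not tested.

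Of the 2 chemokine receptors in the set, cxcr4 was the only call and moved the other way. Receptors listed under LOC identifiers were looked at separately. Cxcr4 is the receptor of Cxcl12 and is known for steering migrating cells in zebrafish embryos. It stood at 11.6 and 10.3 CPM (2 dpf), 3.12 and 5.85 (4 dpf), 6.4 and 6.6 (6 dpf), 3.81 and 3.18 (8 dpf), 3.27 and 2.25 (9 dpf), 3.65 and 5.6 (10 dpf), 3.4 and 3.45 (11 dpf). The 2 dpf libraries were the highest of all, and the stage mean was lowest at 9 dpf.

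At 4 dpf cxcr4 was lower (log2 fold change -1.21 ± 0.27 SE, edgeR adjusted p = 0.00183), and at 11 dpf compared with 2 dpf it was also lower (log2 fold change -1.67 ± 0.28 SE, edgeR adjusted p = 1.26e-04). The first of these calls was lost without replicate 1 of 4 dpf (log2 fold change -0.9, edgeR adjusted p = 0.0102), the library with 3.12 CPM. The other receptor, cxcr5, which homes B cells in mammals, lay between 1.16 and 4.32 CPM and was not called.

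**Figure D3:**
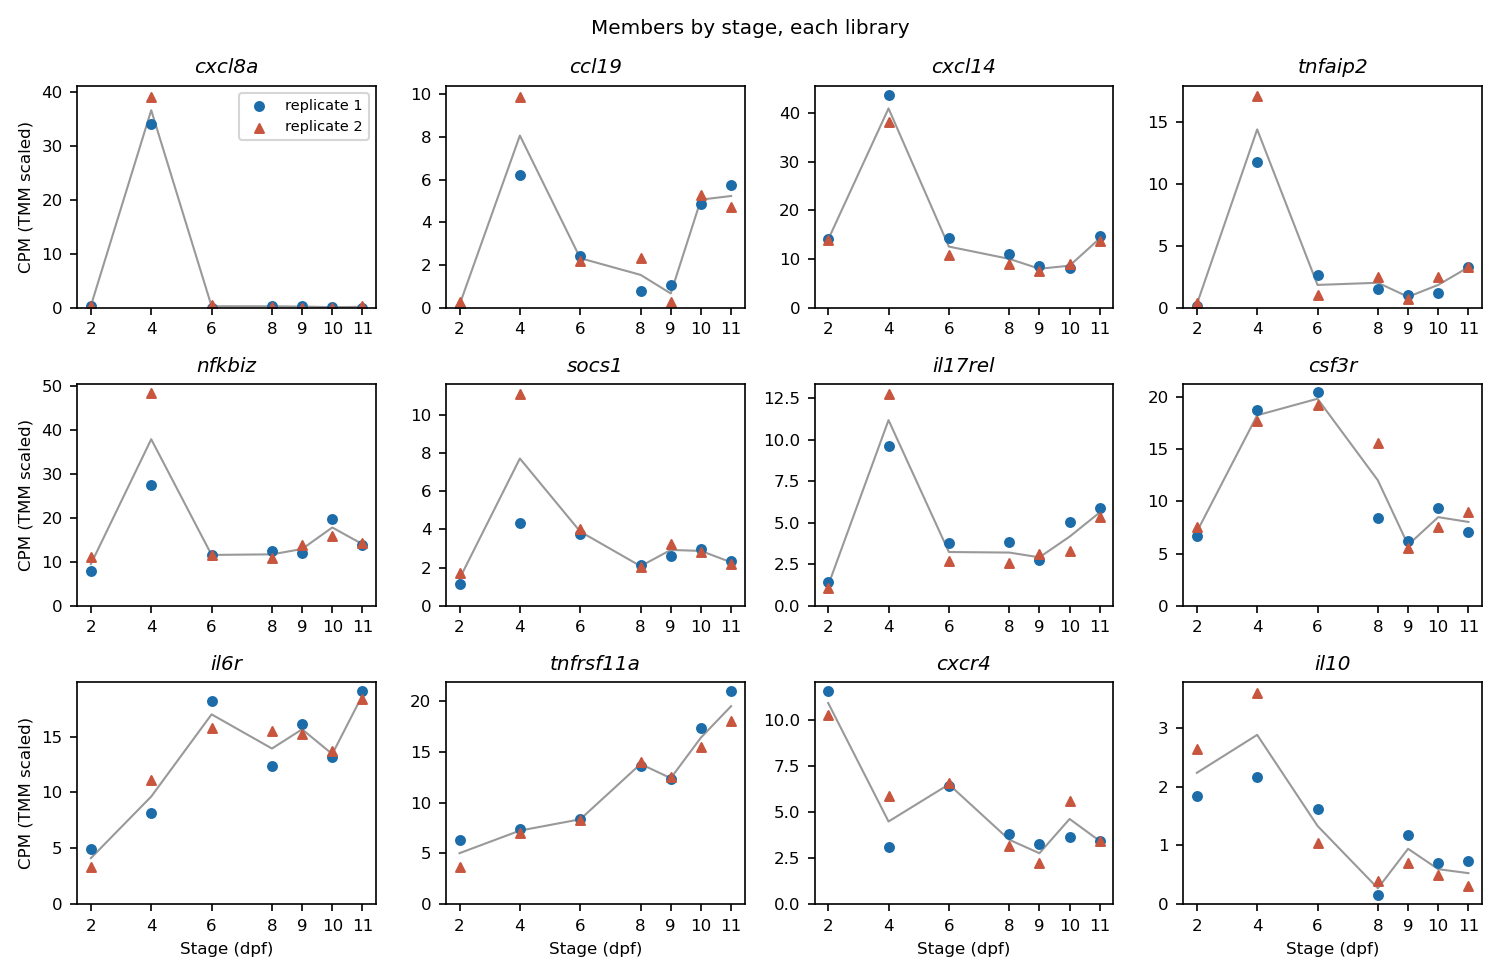
Level of 12 genes of the set by stage (x axis, dpf), in CPM scaled by TMM (y axis, starting at 0, a scale for each gene). Circles are replicate 1, triangles replicate 2 and the grey line joins the stage means. The plots of cxcl8a, ccl19, cxcl14, tnfaip2, nfkbiz, socs1 and il17rel are highest at 4 dpf, tnfrsf11a is highest at 11 dpf, and cxcr4 is highest at 2 dpf.

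Of 7 interleukins, 6 were tested. At 4 dpf il17c and il34 were higher (all genes 13.8%), and at 6 dpf il17c, il34 and il10 were lower (all genes 6.48%). The gene il17c encodes an interleukin 17 family ligand that epithelia make in mammals. It had 0.423 and 0.79 CPM (2 dpf), 2.16 and 3 (4 dpf), 0.508 and 0.647 (6 dpf), 0.61 and 0.289 (8 dpf), 0.393 and 0.141 (9 dpf), 0.347 and 0.659 (10 dpf), 0.887 and 0.157 (11 dpf). The 4 dpf libraries were the only ones above 1 CPM, though with 9 and 20 counts, and it was tested only because of them.

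The gene il17c was called higher at 4 dpf (log2 fold change 2.08 ± 0.55 SE, edgeR adjusted p = 0.00547) and lower at 6 dpf (log2 fold change -2.19 ± 0.53 SE, edgeR adjusted p = 0.00517), but its direction was fixed by the filter. Without replicate 2 of 4 dpf neither call held (edgeR adjusted p = 0.0641 and 0.0622), and the second was also lost without replicate 1 of 6 dpf (edgeR adjusted p = 0.062).

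The gene il34 encodes a second ligand of the macrophage receptor Csf1r. Its level was 1.55 and 1.58 CPM (2 dpf), 5.04 and 3.15 (4 dpf), 1.73 and 1.42 (6 dpf), 1.22 and 1.16 (8 dpf), 0.917 and 1.27 (9 dpf), 1.22 and 1.32 (10 dpf), 2.07 and 1.88 (11 dpf). Both 4 dpf libraries lay above all others. It was higher at 4 dpf (log2 fold change 1.32 ± 0.35 SE, edgeR adjusted p = 0.00602) and lower at 6 dpf (log2 fold change -1.3 ± 0.34 SE, edgeR adjusted p = 0.00799). Without replicate 1 of 4 dpf the calls were lost (log2 fold change 1, edgeR adjusted p = 0.0607 for 4 dpf; log2 fold change -0.98, edgeR adjusted p = 0.0732 for 6 dpf), and without replicate 2 of 6 dpf the second was lost as well (edgeR adjusted p = 0.0591).

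The gene il10 encodes a cytokine that damps inflammation. It stood at 1.83 and 2.63 CPM (2 dpf), 2.16 and 3.6 (4 dpf), 1.63 and 1.03 (6 dpf), 0.152 and 0.385 (8 dpf), 1.18 and 0.703 (9 dpf), 0.695 and 0.494 (10 dpf), 0.739 and 0.314 (11 dpf). Levels were highest at 2 and 4 dpf, where the libraries overlapped, and at 1.18 CPM or less from 8 dpf on. It was lower at 8 dpf than at 6 dpf (log2 fold change -2.14 ± 0.62 SE, edgeR adjusted p = 0.0208) and lower at 11 dpf than at 2 dpf (log2 fold change -2.04 ± 0.54 SE, edgeR adjusted p = 0.00608).

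The call of il10 at 6 dpf (log2 fold change -1.14 ± 0.42 SE, edgeR adjusted p = 0.0494) held in only 1 of 14 fits that left out a library, and was lost with DESeq2 (adjusted p = 0.19) and with the replicate block (edgeR adjusted p = 0.0641). That at 8 dpf was lost without replicate 1 of 6 dpf (edgeR adjusted p = 0.186), replicate 1 of 8 dpf (0.124) or replicate 2 of 8 dpf (0.0774). That at 11 dpf was lost without replicate 2 of 2 dpf (0.0524) or replicate 2 of 11 dpf (0.0751).

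The interleukin with the largest mean was il16, which in mammals is cut from a precursor and attracts T cells. Its values were 24.4 and 30.4 CPM (2 dpf), 20.9 and 13.5 (4 dpf), 26.5 and 22.5 (6 dpf), 30.4 and 34.4 (8 dpf), 28.4 and 31.1 (9 dpf), 32.8 and 35.1 (10 dpf), 29 and 32.5 (11 dpf). It was lowest in the 4 dpf libraries and was not called. Neither were il17b and il17d, which lay between 0.240 and 4.66 CPM. The cytokine il11 was not tested, with 2 and 8 counts at 4 dpf and 10 counts there together against 1 at 2 dpf (ratio 13.6, 95% counting interval 1.93 to 588).

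Among 8 interleukin receptors, 7 were tested and 3 were higher at 4 dpf (all genes 13.8%). The gene il17rel encodes a relative of the interleukin 17 receptor E chain. It had 1.41 and 1.05 CPM (2 dpf), 9.6 and 12.8 (4 dpf), 3.76 and 2.72 (6 dpf), 3.81 and 2.6 (8 dpf), 2.75 and 3.09 (9 dpf), 5.04 and 3.29 (10 dpf), 5.91 and 5.33 (11 dpf). The 4 dpf libraries were highest, the 2 dpf libraries lowest, and the rest lay between 2.60 and 5.91 CPM.

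The rise of il17rel at 4 dpf (log2 fold change 3.19 ± 0.33 SE, edgeR adjusted p = 1.09e-06), its fall at 6 dpf (log2 fold change -1.79 ± 0.27 SE, edgeR adjusted p = 1.10e-04) and the difference of 11 dpf from 2 dpf (log2 fold change 2.18 ± 0.36 SE, edgeR adjusted p = 1.27e-04) were called whichever library was left out.

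The gene il6r encodes the interleukin 6 binding chain. Its levels were 4.94 and 3.29 CPM (2 dpf), 8.16 and 11.1 (4 dpf), 18.2 and 15.8 (6 dpf), 12.4 and 15.5 (8 dpf), 16.1 and 15.2 (9 dpf), 13.2 and 13.7 (10 dpf), 19.1 and 18.4 (11 dpf). All libraries from 6 dpf on were above those of 4 dpf. It was higher at 4 dpf than at 2 dpf (log2 fold change 1.26 ± 0.25 SE, edgeR adjusted p = 5.76e-04), a call lost without replicate 2 of 2 dpf (log2 fold change 0.99, edgeR adjusted p = 0.0112). It was also higher at 11 dpf than at 2 dpf (log2 fold change 2.19 ± 0.22 SE, edgeR adjusted p = 6.15e-07) and was called whichever library was left out.

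The gene il4r encodes the interleukin 4 receptor chain. It stood at 9.46 and 8.96 CPM (2 dpf), 24.2 and 17.4 (4 dpf), 11.3 and 11.4 (6 dpf), 6.87 and 12.7 (8 dpf), 8.64 and 11.1 (9 dpf), 11.3 and 7.74 (10 dpf), 17 and 17.3 (11 dpf). It was higher at 4 dpf (log2 fold change 1.15 ± 0.25 SE, edgeR adjusted p = 0.00151), with the call lost without replicate 1 of 4 dpf (log2 fold change 0.92, edgeR adjusted p = 0.00676) and by library totals (log2 fold change 0.90). The lowest 4 dpf library, at 17.4 CPM, was close to the 11 dpf libraries.

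The receptor with the largest mean, il17rd, is also known in zebrafish as a brake on fibroblast growth factor signalling. It had 29.2 and 33.5 CPM (2 dpf), 26.4 and 16.8 (4 dpf), 20.6 and 25.9 (6 dpf), 21.5 and 21.9 (8 dpf), 22.3 and 24.3 (9 dpf), 21.9 and 18.9 (10 dpf), 23.1 and 22.3 (11 dpf). It was not called in any comparison, nor were il17rb, il1rapl1 and il7r. The log2 fold changes of these 4 receptors lay between -0.78 and 1.26. The receptor il21r was not tested.

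The set holds 1 colony-stimulating factor gene, csf3r, the receptor through which granulocyte colony-stimulating factor drives neutrophil production. Its values were 6.63 and 7.51 CPM (2 dpf), 18.7 and 17.7 (4 dpf), 20.4 and 19.1 (6 dpf), 8.39 and 15.6 (8 dpf), 6.16 and 5.49 (9 dpf), 9.38 and 7.58 (10 dpf), 7.09 and 8.94 (11 dpf). It was high at both 4 and 6 dpf, and in 1 of the 2 libraries of 8 dpf. The rise of csf3r at 4 dpf (log2 fold change 1.36 ± 0.25 SE, edgeR adjusted p = 3.13e-04) was called whichever library was left out. The fall between 8 and 9 dpf (log2 fold change -1.08 ± 0.25 SE, edgeR adjusted p = 0.0224) was lost without replicate 2 of 8 dpf (log2 fold change -0.53, edgeR adjusted p = 0.417), and without either library of 9 dpf (edgeR adjusted p = 0.152 and 0.205).

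Of 8 TNF family ligands and receptors in the set, 6 were tested, and both of their calls came between 2 and 11 dpf (all genes 20.8%). Others, listed under LOC identifiers, were looked at separately. The gene tnfrsf11a encodes the receptor RANK, which in mammals is needed to form osteoclasts. Its level was 6.35 and 3.69 CPM (2 dpf), 7.44 and 7.05 (4 dpf), 8.44 and 8.28 (6 dpf), 13.6 and 14.1 (8 dpf), 12.3 and 12.5 (9 dpf), 17.4 and 15.5 (10 dpf), 21 and 18 (11 dpf). Both 11 dpf libraries were above all others, and both 2 dpf libraries below all others.

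For tnfrsf11a no adjacent comparison was called, and 11 dpf was higher than 2 dpf (log2 fold change 1.97 ± 0.21 SE, edgeR adjusted p = 1.24e-06). Its ligand gene tnfsf11 lay between 3.56 and 6.72 CPM and was not called.

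The gene tnfsf12 encodes the ligand TWEAK. It had 2.54 and 6.06 CPM (2 dpf), 7.44 and 5.85 (4 dpf), 8.94 and 8.8 (6 dpf), 12.7 and 14.9 (8 dpf), 11.7 and 9.7 (9 dpf), 14.9 and 14.8 (10 dpf), 14.6 and 15.2 (11 dpf). Replicate 1 of 2 dpf was the lowest library, and all libraries from 10 dpf on were at 14.6 CPM or above. It was higher at 11 dpf than at 2 dpf (log2 fold change 1.78 ± 0.26 SE, edgeR adjusted p = 4.50e-05), and the log2 fold change lay between 1.30 and 2.54 when 1 library was left out.

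The receptor with the largest mean, tnfrsf19, which is expressed in developing nervous tissue and skin in mammals, had 19.2 and 17.5 CPM (2 dpf), 18 and 12 (4 dpf), 19 and 17.9 (6 dpf), 21.1 and 20.1 (8 dpf), 18.7 and 22.9 (9 dpf), 20.7 and 20.8 (10 dpf), 17.9 and 19.9 (11 dpf). Together with tnfrsf17 and tnfrsf21 it was not called, and for these 3 receptors the edgeR adjusted p over the 7 stages was between 0.183 and 0.646. The ligands tnfsf13b and tnfsf14 were not tested, with at most 5 counts in any library.

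The tnfaip genes are named for their induction by TNF. Of 4, tnfaip2 and tnfaip6 were higher at 4 dpf (all genes 13.8%) and tnfaip2 was lower at 6 dpf (all genes 6.48%). The gene tnfaip2 was found as a TNF response gene of endothelial cells in mammals. Its level was 0.141 and 0.395 CPM (2 dpf), 11.8 and 17.1 (4 dpf), 2.64 and 1.03 (6 dpf), 1.53 and 2.5 (8 dpf), 1.05 and 0.703 (9 dpf), 1.22 and 2.47 (10 dpf), 3.25 and 3.29 (11 dpf). It was near the floor at 2 dpf with 1 and 3 counts, and both 4 dpf libraries were above all others, of which the highest stood at 3.29 CPM.

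The ratio of tnfaip2 at 4 dpf to 2 dpf was 55.2 (95% counting interval 21.2 to 205; log2 fold change 5.67 ± 0.51 SE, edgeR adjusted p = 2.21e-07), and it fell at 6 dpf (log2 fold change -2.93 ± 0.35 SE, edgeR adjusted p = 1.27e-05). At 11 dpf it was still above 2 dpf, with a ratio of 12.0 (95% counting interval 4.36 to 46.1; log2 fold change 3.5 ± 0.66 SE, edgeR adjusted p = 4.10e-04). All 3 calls held when any 1 library was left out.

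The gene tnfaip6 encodes a protein that binds hyaluronan in the matrix of inflamed tissue. It had 10.3 and 8.43 CPM (2 dpf), 17 and 33.1 (4 dpf), 15.8 and 14.1 (6 dpf), 10.4 and 10.9 (8 dpf), 10.5 and 9.28 (9 dpf), 18.1 and 14 (10 dpf), 14.6 and 18.7 (11 dpf). Replicate 2 of 4 dpf stood apart, and replicate 1 lay among the libraries of later stages. The rise at 4 dpf (log2 fold change 1.47 ± 0.25 SE, edgeR adjusted p = 1.78e-04) was no longer called without replicate 2 of 4 dpf (log2 fold change 0.88, edgeR adjusted p = 0.00671). The gene tnfaip3, which encodes the ubiquitin-editing NF-kB inhibitor A20, and tnfaip8l3 were not called, with log2 fold changes between -0.67 and 0.73.

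Of 3 Toll-like receptor genes, tlr3 and tlr7 were tested. Both encode receptors of RNA inside endosomes, tlr3 for double strands and tlr7 for single strands. The values of tlr3 were 1.69 and 3.03 CPM (2 dpf), 7.2 and 4.35 (4 dpf), 3.76 and 4.79 (6 dpf), 3.2 and 4.72 (8 dpf), 5.76 and 4.64 (9 dpf), 5.73 and 6.59 (10 dpf), 9.31 and 7.37 (11 dpf). They were lowest at 2 dpf and highest at 11 dpf, with 1 high library at 4 dpf.

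The rise of tlr3 at 4 dpf (log2 fold change 1.21 ± 0.36 SE, edgeR adjusted p = 0.0115) was lost without replicate 1 of 2 dpf (log2 fold change 0.86, edgeR adjusted p = 0.106) and without replicate 1 of 4 dpf (log2 fold change 0.86, edgeR adjusted p = 0.085). That from 2 to 11 dpf (log2 fold change 1.8 ± 0.32 SE, edgeR adjusted p = 2.58e-04) held whichever library was left out.

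The gene tlr7 stood at 0.423 and 0.395 CPM (2 dpf), 3.12 and 0.6 (4 dpf), 0.813 and 1.55 (6 dpf), 0.61 and 0.674 (8 dpf), 1.7 and 2.25 (9 dpf), 1.39 and 1.65 (10 dpf), 2.37 and 1.1 (11 dpf). At 2 dpf it had 3 counts in each library, and the 2 libraries of 4 dpf lay far apart. The ratio of 11 to 2 dpf was 4.28 (95% counting interval 1.70 to 12.9; log2 fold change 2.05 ± 0.73 SE, edgeR adjusted p = 0.0308). It was lost without replicate 1 of 2 dpf (edgeR adjusted p = 0.103), replicate 2 of 2 dpf (0.118) or replicate 1 of 11 dpf (0.29). The gene tlr2 was not tested, with 0 to 4 counts per library.

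TRAF adaptors carry signals from TNF, interleukin 1 and Toll-like receptors. The group of 8 was formed by name and also holds traf3ip1, traf3ip2 and trafd1, which are not TRAF proteins themselves. None of traf2, traf3, traf4, traf6 and traf7 was called, and the only called gene of the group was traf3ip2. It encodes Act1, the adaptor of interleukin 17 receptors, and had 6.35 and 4.08 CPM (2 dpf), 12.7 and 9.9 (4 dpf), 4.98 and 5.18 (6 dpf), 6.56 and 5.58 (8 dpf), 2.75 and 4.08 (9 dpf), 7.12 and 3.95 (10 dpf), 5.03 and 4.24 (11 dpf). Both 4 dpf libraries were above all others.

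The gene traf3ip2 was higher at 4 dpf (log2 fold change 1.1 ± 0.28 SE, edgeR adjusted p = 0.00467) and lower at 6 dpf (log2 fold change -1.13 ± 0.27 SE, edgeR adjusted p = 0.00508). Without replicate 1 of 4 dpf both calls were lost, at log2 fold changes of 0.93 and -0.96, and the first also without replicate 2 of 2 dpf (log2 fold change 0.8, edgeR adjusted p = 0.0601). It was also lost at 4 dpf by library totals (0.84).

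The TRAF gene with the largest mean was traf2, an adaptor of TNF receptors, with 41.4 and 42.5 CPM (2 dpf), 40.1 and 48.9 (4 dpf), 34.4 and 37.4 (6 dpf), 38.8 and 39.5 (8 dpf), 31.2 and 31.8 (9 dpf), 38.5 and 40.5 (10 dpf), 44.3 and 39.7 (11 dpf). Its libraries stayed between 31.2 and 48.9 CPM. The 7 uncalled genes of this group had log2 fold changes between -0.87 and 0.53 over the 7 comparisons. Of these, 5 had an edgeR adjusted p under 0.05 over the 7 stages together.

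All 8 NF-kB genes were tested, and 3 were higher at 4 dpf (all genes 13.8%): the subunit gene nfkb2 and the inhibitor family genes nfkbiz and nfkbia. The gene nfkbiz encodes a nuclear inhibitor family protein that is itself needed to switch on some inflammatory genes in mammals. Its level was 7.9 and 11.1 CPM (2 dpf), 27.4 and 48.3 (4 dpf), 11.5 and 11.7 (6 dpf), 12.5 and 10.9 (8 dpf), 12.1 and 13.8 (9 dpf), 19.6 and 16 (10 dpf), 13.7 and 14.3 (11 dpf). Both 4 dpf libraries were above all others.

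The gene nfkbiz rose at 4 dpf (log2 fold change 2.02 ± 0.23 SE, edgeR adjusted p = 3.32e-06) and fell at 6 dpf (log2 fold change -1.74 ± 0.22 SE, edgeR adjusted p = 2.49e-05). Both calls held when any 1 library was left out.

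The gene nfkb2 encodes the precursor p100, which is cut to the subunit p52. It stood at 13.1 and 12.4 CPM (2 dpf), 41.3 and 37.8 (4 dpf), 21.2 and 22.1 (6 dpf), 25 and 27.4 (8 dpf), 23.6 and 24.6 (9 dpf), 29.9 and 28 (10 dpf), 25.9 and 24.9 (11 dpf). The 2 dpf libraries were lowest and those of 4 dpf highest, and from 6 dpf on the libraries lay between 21.2 and 29.9 CPM. The rise at 4 dpf (log2 fold change 1.63 ± 0.14 SE, edgeR adjusted p = 1.38e-07) held whichever library was left out.

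The gene nfkbia encodes the inhibitor IkB alpha, which holds NF-kB in the cytoplasm. Its values were 26.9 and 20.3 CPM (2 dpf), 34.6 and 59.7 (4 dpf), 33.6 and 33.3 (6 dpf), 29.4 and 23.8 (8 dpf), 21.5 and 22.8 (9 dpf), 34.7 and 36.1 (10 dpf), 22.3 and 21.2 (11 dpf). Only replicate 2 of 4 dpf was above all other libraries. The rise at 4 dpf (log2 fold change 1.02 ± 0.20 SE, edgeR adjusted p = 7.13e-04) was no longer called without replicate 2 of 4 dpf (log2 fold change 0.57, edgeR adjusted p = 0.0193), without replicate 2 of 2 dpf (log2 fold change 0.83, edgeR adjusted p = 0.0151) or by library totals (log2 fold change 0.76).

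The gene nfkb1 encodes the precursor p105 of the subunit p50. It had 11.3 and 18.3 CPM (2 dpf), 18 and 10.5 (4 dpf), 7.83 and 8.02 (6 dpf), 19.5 and 17.5 (8 dpf), 17 and 13.8 (9 dpf), 17.4 and 18.8 (10 dpf), 9.61 and 13.5 (11 dpf). The lowest libraries were those of 6 dpf. The rise from 6 to 8 dpf (log2 fold change 1.22 ± 0.25 SE, edgeR adjusted p = 0.00274) held whichever library was left out, and was lost when the pairs of 6, 9 and 11 dpf were each summed (edgeR adjusted p = 0.0668). The other 4 NF-kB genes, nfkbib, nfkbid, nfkbie and nfkbil1, were not called, with log2 fold changes between -0.99 and 1.16.

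Of 3 SOCS genes, socs1, whose product blocks JAK kinases, was called. It stood at 1.13 and 1.71 CPM (2 dpf), 4.32 and 11.1 (4 dpf), 3.76 and 4.01 (6 dpf), 2.14 and 2.02 (8 dpf), 2.62 and 3.23 (9 dpf), 2.95 and 2.8 (10 dpf), 2.37 and 2.2 (11 dpf). Replicate 2 of 4 dpf was far above every other library, and replicate 1 was close to the 6 dpf libraries.

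The gene socs1 rose at 4 dpf (log2 fold change 2.5 ± 0.39 SE, edgeR adjusted p = 8.60e-05), and without replicate 2 of 4 dpf it was still called, at 1.60. The fall at 6 dpf (log2 fold change -1.07 ± 0.32 SE, edgeR adjusted p = 0.0178) was not called without that library (log2 fold change -0.14, edgeR adjusted p = 0.815). It was also lost without replicate 1 of 6 dpf (0.112) or replicate 2 of 6 dpf (0.0718), and with DESeq2 (adjusted p = 0.0604).

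The SOCS gene with the largest mean, socs6, had 16.6 and 15.9 CPM (2 dpf), 21.1 and 12.8 (4 dpf), 16.7 and 13.7 (6 dpf), 11.8 and 11.9 (8 dpf), 13.2 and 13.1 (9 dpf), 10.1 and 8.4 (10 dpf), 14.3 and 11.9 (11 dpf). Neither it nor socs7 was called, with log2 fold changes between -0.71 and 0.86. The last gene of the set, il4i1, an amino acid oxidase induced by interleukin 4 in mammals, had at most 3 counts in any library and was not tested.

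In all, 23 of the 58 genes were called in at least 1 of the 7 comparisons, 28 were tested and not called in any, and 7 were not tested. The share of all tested genes called over the same 7 comparisons was not computed, so the 23 are a tally and not an excess. They include cxcl8a and il17c, whose direction was fixed by the filter. Of the 28, 13 had an edgeR adjusted p under 0.05 over the 7 stages. Their log2 fold changes lay between -1.08 and 1.26.

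Other genes of these pathways were counted from lists of names, and no list was tested against all genes. At 4 dpf 13.8% of all tested genes were higher and 19.8% were called in either direction. Among adaptors of Toll-like and interleukin 1 receptors, 4 of 15 tested (26.7%) were higher at 4 dpf, where 13.8% of all tested genes were, and 0 lower, with a median log2 fold change of 0.25, while over all genes it was 0.00. The gene irak3, an inhibitor of this route, had 5.36 and 4.87 CPM (2 dpf), 17.5 and 24 (4 dpf), 6.71 and 7.25 (6 dpf), 5.34 and 5.97 (8 dpf), and was higher at 4 dpf (log2 fold change 2.04 ± 0.24 SE, edgeR adjusted p = 4.32e-06) and lower at 6 dpf (log2 fold change -1.6 ± 0.22 SE, edgeR adjusted p = 5.83e-05). Also higher at 4 dpf were pik3ap1 (log2 fold change 1.52 ± 0.32 SE, edgeR adjusted p = 0.00104) and irak4, a kinase of the same route (log2 fold change 1.31 ± 0.20 SE, edgeR adjusted p = 4.94e-05). At 6 dpf 1 of the 15 adaptors was higher and 2 lower, where 4.81% of all tested genes were higher and 6.48% lower.

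The central adaptor of Toll-like receptors, myd88, did not share the 4 dpf peak. Its values were 4.8 and 4.35 CPM (2 dpf), 4.56 and 4.65 (4 dpf), 10.7 and 9.19 (6 dpf), 4.27 and 3.56 (8 dpf), 7.07 and 6.75 (9 dpf), 3.47 and 2.63 (10 dpf), 7.98 and 8.16 (11 dpf). They went up and down between stages, and the 2 libraries of each stage stayed close. All libraries of 6, 9 and 11 dpf were above those of the other stages. These are also the stages whose pairs differed least over all genes (chi-square per gene 1.13, 1.15 and 1.29). A change with age and a difference between these libraries and the others cannot be told apart. It was higher at 6 dpf than at 4 dpf (log2 fold change 1.11 ± 0.22 SE, edgeR adjusted p = 0.0012), lower at 8 dpf (log2 fold change -1.37 ± 0.21 SE, edgeR adjusted p = 3.55e-04), lower at 10 than at 9 dpf (log2 fold change -1.18 ± 0.25 SE, edgeR adjusted p = 0.0188) and higher at 11 dpf (log2 fold change 1.4 ± 0.25 SE, edgeR adjusted p = 0.00572). The gene cnpy3, a chaperone of Toll-like receptors, was higher at 4 dpf and lower at 6 dpf.

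Among NF-kB subunits and the kinases and regulators around them, 3 of 15 (20%) were higher at 4 dpf and 0 lower, with a median of 0.43. Among all tested genes 13.8% were higher and 19.8% were called in either direction. The gene bcl3, a nuclear partner of p50 and p52, had 0.706 and 0.527 CPM (2 dpf), 10.1 and 13.9 (4 dpf), 1.73 and 0.906 (6 dpf), 2.22 and 2.35 (11 dpf). Its libraries of 4 dpf were far above all others (log2 fold change 4.28 ± 0.36 SE, edgeR adjusted p = 1.05e-07 at 4 dpf; log2 fold change -3.15 ± 0.30 SE, edgeR adjusted p = 1.65e-06 at 6 dpf). The subunit gene rel (log2 fold change 1.82 ± 0.21 SE, edgeR adjusted p = 2.94e-06) and the regulator tnip2 (log2 fold change 1.83 ± 0.27 SE, edgeR adjusted p = 5.11e-05) were higher too. At 6 dpf bcl3 and rel were lower (13.3% of the list, all genes 6.48%).

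In TNF receptor death and survival signalling 4 of 16 (25%) were higher at 4 dpf and 0 lower, with a median of 0.65 (all genes 13.8% higher, 19.8% called). These were cflar, an inhibitor of caspase 8 (log2 fold change 2.01 ± 0.45 SE, edgeR adjusted p = 0.00195), rbck1, a part of the linear ubiquitin ligase (log2 fold change 1.96 ± 0.33 SE, edgeR adjusted p = 1.69e-04), ripk3, a kinase of necroptosis (log2 fold change 1.75 ± 0.31 SE, edgeR adjusted p = 2.45e-04), and fadd, the adaptor that binds caspase 8. Only cflar was lower at 6 dpf (6.25% of the list, all genes 6.48%).

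In the JAK-STAT list 4 of 21 (19.0%) were higher at 4 dpf and 0 lower, with a median of 0.09 (all genes 13.8% higher, 19.8% called). The gene stat1b, a factor of interferon signalling, had 6.35 and 6.06 CPM (2 dpf), 54.2 and 45.7 (4 dpf), 101 and 101 (6 dpf), 29.9 and 32.5 (8 dpf). It was highest at 6 dpf (log2 fold change 3 ± 0.17 SE, edgeR adjusted p = 1e-09 at 4 dpf; log2 fold change 1.02 ± 0.13 SE, edgeR adjusted p = 3.23e-05 at 6 dpf). Its partner stat2 was also higher at 6 dpf (log2 fold change 1.56 ± 0.13 SE, edgeR adjusted p = 4.47e-07), whereas stat4 was higher at 4 dpf (log2 fold change 1.41 ± 0.23 SE, edgeR adjusted p = 1e-04) and lower at 6 dpf. Of 6 other chemoattractant receptors 1 (16.7%) was higher at 4 dpf, the chemokine scavenger ackr4a (log2 fold change 2.06 ± 0.39 SE, edgeR adjusted p = 4.83e-04), with a list median of 0.19.

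Markers of white blood cells also changed over these stages. The summed level of 5 of 7 general leukocyte markers was 43.6 and 49.4 CPM (2 dpf), 60.5 and 92.5 (4 dpf), 108 and 102 (6 dpf), 63.8 and 70.6 (8 dpf), 43.1 and 39.4 (9 dpf), 71.7 and 60.3 (10 dpf), 55.9 and 52.1 (11 dpf). That of 8 of 11 macrophage markers was 44.5 and 51.8 CPM (2 dpf), 110 and 102 (4 dpf), 117 and 117 (6 dpf), 94.6 and 92.9 (8 dpf), 59.9 and 65.1 (9 dpf), 81.6 and 74.6 (10 dpf), 82.5 and 77.3 (11 dpf). Both sums were highest at 6 dpf. At 4 dpf 1 of the 5 leukocyte and 4 of the 8 macrophage markers were called higher (all genes 13.8%). At 6 dpf 1 and 2 of them were (all genes 4.81%), and at both steps 0 were lower.

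Of 8 neutrophil markers only mpx, which encodes myeloperoxidase, was found by name. It stood at 9.74 and 12.9 CPM (2 dpf), 21.8 and 40.9 (4 dpf), 21.6 and 23.6 (6 dpf), 18.9 and 19.6 (8 dpf), 10.5 and 8.86 (9 dpf), 15.5 and 25.4 (10 dpf), 24.2 and 19.1 (11 dpf). Replicate 2 of 4 dpf was the library with the highest mpx. Of the 17 genes of the set called higher at 4 dpf, 10, among them socs1 and tnfaip6, had more in that library than in replicate 1, and 7, among them cxcl14 and nfkb2, had less. Among all tested genes with at least 20 counts in both 4 dpf libraries together, 50.1% had more in replicate 2. A link of the set to mpx was not tested. The T cell markers (6 of 7) went from 2.26 and 3.16 CPM at 2 dpf to 20.2 and 19.9 at 11 dpf, with cd3e, cd8a and rag2 at or under 3 counts in both libraries of 2 and of 4 dpf. The B cell markers (3 of 5) summed to 3.1 and 4.21 CPM (2 dpf), 1.44 and 1.05 (4 dpf) and 3.35 and 2.85 (6 dpf). The 1 of them that was tested was called lower at 4 dpf (log2 fold change -2.36) and higher at 6 dpf (log2 fold change 1.68). All 3 (cd79a, cd79b and pax5) were at or under 3 counts in both 4 dpf libraries, so both calls rest on a stage at the floor. In whole-body RNA fewer cells of a type and less RNA per cell cannot be told apart, and the part of these markers in the results above was not tested.

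**Figure D4:**
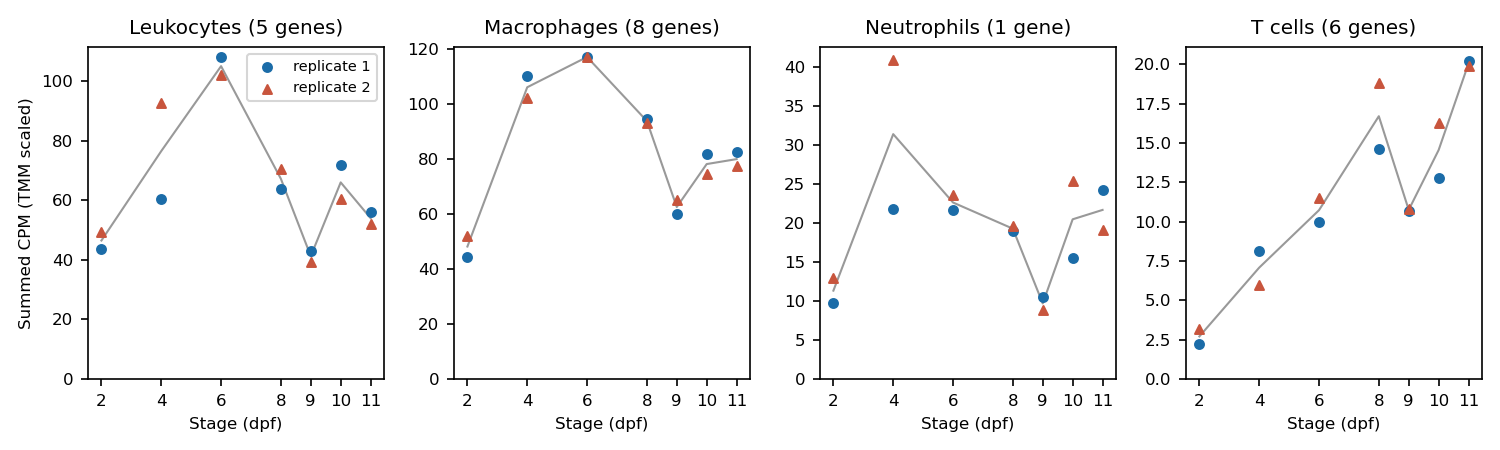
Summed level of marker genes of leukocytes, macrophages, neutrophils (mpx alone) and T cells by stage (x axis, dpf), in CPM scaled by TMM (y axis, starting at 0, a scale for each panel). Circles are replicate 1, triangles replicate 2 and the grey line joins the stage means. Leukocyte and macrophage sums are highest at 6 dpf, mpx is highest in replicate 2 of 4 dpf (40.9), and the T cell sum is highest at 11 dpf.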

How the data were processed

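RNA-seq of whole tra catfish at 7 stages, with 2 libraries each, was used. The authors ran Trimmomatic 0.36 on the reads, STAR 2.7.0 against the genome and HTSeq for counting, and deposited raw counts for 21656 genes; the counting mode and strand setting were not stated. Counts were tested here with edgeR 4.0.16 in R 4.3.3: filterByExpr kept 19310 genes, TMM factors scaled the totals, and each comparison was a contrast in 1 quasi-likelihood model over all 14 libraries, with Benjamini-Hochberg adjustment over all tested genes. The standard error of a log2 fold change was derived from its F statistic. A ratio with an exact 95% counting interval was computed where 1 stage had at most 3 counts in each library or 4 in both together. This was done for genes of the set only, not for LOC or list genes. Such intervals cover counting error only.

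The genes and lists were chosen with earlier results of these data known. Genes given in every library were cxcl8a, those called in any comparison and the one with the largest mean of each role, with at most 6 called per role. For pathway lists at most 3 called genes per comparison were given values. LOC identifiers were matched to the RefSeq name table of the assembly fPanHyp1.pri (10538 of 11307 found, 6917 with a symbol), which is not the build the authors aligned to, so no coordinates are given. Alternatives were DESeq2 1.42.0, unadjusted p, other scalings and filters, fewer libraries, a replicate block, summed pairs, no fold threshold and the LOC rows. The pipeline was tested on simulated data. Sequences were not used here. Python 3.11.15 with pandas 2.3.3, numpy 2.4.6, scipy 1.17.1 and matplotlib 3.10.9 was used for summaries and figures.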

Additional observations from a re-analysis of the deposited data

How the results depend on the processing

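Of 43 gene and comparison pairs called, 23 kept their call under every alternative that gave a value, and 19 lost it when at least 1 library was left out. Of 964 values recomputed, 892 kept the call, 72 lost it and 0 changed direction. Values with unadjusted p came from the same fit and could not lose a call. Most fits without 1 library left out a library outside the stages compared. The calls of cxcl8a and il17c, whose direction was fixed by the filter, are among these values. The share kept is therefore not a measure of how stable the calls are. DESeq2 gave no adjusted p for il10 at 8 dpf against 6 dpf. The cause was not tested.

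With 1 library left out, the set had 14 to 19 calls at 4 dpf, 8 to 13 at 6 dpf, 1 to 3 at 8 dpf, 0 to 2 at 9 dpf, 0 to 1 at 10 dpf, 0 at 11 dpf, 9 to 12 between 11 and 2 dpf, 17 to 21 at any adjacent step and 31 to 39 over the 7 stages. Calls of all genes in these fits are not given here. The ranges therefore show only how the counts of the set moved, not whether they stayed above the share of all genes. DESeq2 called 1 of 58 at 8 dpf (all genes 917 of 21625). With unadjusted p 4 of 51 were called at 9 dpf (all genes 527 of 19310). By library totals there were 5 of 51 at 8 dpf (all genes 1427 of 19310) and 0 at 9 dpf (all genes 273). With only the 4 libraries compared there were 2 of 43 at 9 dpf (all genes 403 of 18207). With no fold threshold there were 21 of 51 at 6 dpf (all genes 5876 of 19310) and 5 at 8 dpf (all genes 4190). Between 11 and 2 dpf there were 18 (all genes 8293). At 8 dpf and between 11 and 2 dpf the share of the set was below that of all genes. When each pair of 6, 9 and 11 dpf was summed there were 7 of 51 at 6 dpf (all genes 1595 of 19499). There were 0 at 8, 9 and 10 dpf (all genes 377, 11 and 37). At least 10 counts in every library leaves 34 of the set and 15835 of all genes to test. It gave 11 at 4 dpf (all genes 2626), 3 at 6 dpf (1516), 1 at 8 dpf (733) and 0 at 10 dpf (128). Between 11 and 2 dpf it gave 6 (all genes 2675), and at any adjacent step 12 (3948). With the LOC rows 113 were tested, and 40, 24 and 4 were called at 4, 6 and 8 dpf (all genes 19.8%, 11.3% and 5.74%). There were 22 between 11 and 2 dpf (all genes 20.8%), 46 at any adjacent step (29.2%) and 76 over the 7 stages (75.3%). The 46 include cxcl8a and il17c, and this count was not repeated without genes that passed the filter through 1 stage only.

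Samples with the same replicate number did not deviate together (correlations of replicate differences from -0.184 to 0.059 over 21 pairs of stages, 0 of them over 0.1), so the numbers were not taken as a pairing. With the replicate block there were 18 calls of 51 at 4 dpf (all genes 3782 of 19310) and 10 at 6 dpf (all genes 2125). The depth limits the 7 untested genes, which had at most 8 counts in any library.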

Other observations

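The 86 genes listed only by LOC identifier whose RefSeq symbol fits the same name rule were looked at separately; the genes named in this paragraph were chosen after their values were seen. Of these, 62 had enough counts to be tested. At 4 dpf compared with 2 dpf 20 of the 62 were higher and 2 lower (35.5% called, all genes 19.8%), with a median log2 fold change of 0.63. At 6 dpf compared with 4 dpf 2 were higher and 11 lower (21.0% called, all genes 11.3%). These counts were not repeated without genes that passed the filter through 1 stage only. The chemokine genes ccl19a.2 (log2 fold change 4.44 ± 0.64 SE), ccl20l (log2 fold change 3.5 ± 0.35 SE, edgeR adjusted p = 7.89e-07) and ccl20a.3 (log2 fold change 3.37 ± 0.30 SE, edgeR adjusted p = 2.10e-07) were among the largest rises. Outside 4 dpf ccl19a.2 stood at 1.42 CPM or less, and at 2 dpf it was near the floor (0.141 and 0.132 CPM). It was tested only because of its level at 4 dpf, so its direction was fixed by the filter. The inhibitor gene socs3a had 4.8 and 5 CPM (2 dpf), 55.7 and 65.7 (4 dpf), 9.55 and 9.71 (6 dpf) (log2 fold change 3.63 ± 0.21 SE, edgeR adjusted p = 1.15e-09 at 4 dpf; log2 fold change -2.66 ± 0.18 SE, edgeR adjusted p = 4.68e-08 at 6 dpf). Receptor genes higher at 4 dpf included ccr12a (log2 fold change 3.25), tnfrsf9a (1.77), tnfrsf1a (1.21) and tnfrsf1b (1.18). Lower at 4 dpf were cxcr4a (log2 fold change -1.23 ± 0.37 SE, edgeR adjusted p = 0.0131), a relative of cxcr4, and tnfaip8l1.

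Late calls in this group were few. Between 6 and 8 dpf 2 of the 62 were lower (3.23% called, all genes 5.74%), ccl19a.1 and ccr12b.2. At the 3 later steps edgeR called 0 of them (all genes 1.28%, 1.01% and 1.14%). At these steps 7, 7 and 12 had an unadjusted edgeR p under 0.05, and all genes were not counted at that p alone. At 11 dpf compared with 2 dpf 12 were called, 10 higher and 2 lower (19.4% called, all genes 20.8%), among them il15 (log2 fold change 1.37 ± 0.48 SE, edgeR adjusted p = 0.0304), a cytokine of lymphocyte survival, and il12rb1 (log2 fold change 2.84 ± 0.65 SE, edgeR adjusted p = 0.002), a chain of the interleukin 12 receptor. The level of il12rb1 at 2 dpf was near the floor, at 0.141 and 0.395 CPM, and no counting interval was computed for it.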
